A study of Mus musculus with 6 samples.

Results

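The genes described here are 9 chemokines that Th17 cells can make: *Ccl1*, *Ccl3*, *Ccl4*, *Ccl5*, *Ccl9*, *Ccl20*, *Xcl1*, *Cxcl10* and *Cxcl3*. They were taken by gene symbol from the deposited expression table, in which all 9 of them were found among 16244 genes. They were compared between 3 WT libraries and 3 libraries carrying the RORγt mutation N275D (RORγtN275D), all from Th17 cells grown from spleen CD4+ T cells. Both genotypes were cultured for 3 days with anti-CD3 and anti-CD28 under pathogenic Th17 conditions, for which the labels name IL-6, IL-1β and IL-23. The study's methods also list TGF-β and antibodies that block IL-4 and IFN-γ among the Th17 culture additives. RORγtN275D is a CRISPR knockin allele on a C57BL/6 background, the WT mice were bought as C57BL/6 (C57BL/6NJ in the list of resources), and age is given only for the mice of the study as a whole (young adults of both sexes). Whether the libraries came from separate mice, and whether the knockin donors carried 1 or both mutant alleles, was not given in the sources used here, so p-values measure the spread between these libraries, which may be technical.

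Chemokines are small secreted proteins that bind to G protein-coupled receptors and draw the cells carrying those receptors toward their source. The CC chemokines CCL3, CCL4 and CCL5 are inflammatory chemokines that act on T cells, monocytes and natural killer cells, and CCL3, CCL5 and the rodent chemokine CCL9 bind CCR1. CCL20 is the ligand of CCR6, a receptor that Th17 cells themselves carry, and *Ccl20* is a known Th17 product. CCL1 acts through CCR8, XCL1 through XCR1 on cross-presenting dendritic cells, CXCL10 through CXCR3 on Th1-type cells, and CXCL3 through CXCR2 on neutrophils. In T cells many of these genes respond to T cell receptor signalling, and *Cxcl10* is a classical interferon target.

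Sequence upstream of the gene start is shown for 3 chemokines, chosen because *Ccl20* and *Ccl3* were lower and *Cxcl10* was higher in the mutant libraries, and because their windows hold motifs known from chemokine and interferon-induced genes. Each line gives the 250 bases before the RefSeq gene start in GRCm38.p6 (the build mm10), written 5′ to 3′ on the gene's strand. Capitals mark matches, on either strand, to the ROR half-site AGGTCA, the hypoxia core ACGTG, the κB motif (GGGA, any pair of bases, T, any base, CC), the interferon-stimulated motif (GAAA, any pair of bases, GAAA), the AP-1 motif TGANTCA and the RUNX motif TGTGGT. The motifs were chosen with the sequences in view.
Ccl20 (chr1:83116516-83116765, plus strand): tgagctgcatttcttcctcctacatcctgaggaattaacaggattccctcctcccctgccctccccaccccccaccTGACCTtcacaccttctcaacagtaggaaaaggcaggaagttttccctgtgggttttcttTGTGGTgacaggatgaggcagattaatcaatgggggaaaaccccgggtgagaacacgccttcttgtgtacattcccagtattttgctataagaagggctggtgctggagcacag
Ccl3 (chr11:83649379-83649628, minus strand): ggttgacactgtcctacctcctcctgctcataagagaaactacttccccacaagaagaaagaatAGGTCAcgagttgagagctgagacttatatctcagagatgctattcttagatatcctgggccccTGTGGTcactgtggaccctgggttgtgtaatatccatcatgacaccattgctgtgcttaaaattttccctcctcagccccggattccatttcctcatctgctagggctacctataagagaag
Cxcl10 (chr5:92348890-92349139, minus strand): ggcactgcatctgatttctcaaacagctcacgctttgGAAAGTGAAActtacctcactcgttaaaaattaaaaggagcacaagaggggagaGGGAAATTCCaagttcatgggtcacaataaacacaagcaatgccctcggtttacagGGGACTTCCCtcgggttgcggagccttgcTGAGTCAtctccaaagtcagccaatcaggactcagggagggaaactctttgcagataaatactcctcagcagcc

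The *Ccl20* window held the ROR half-site on its opposite strand at bases 174 to 169 before the start, and the *Ccl3* window held it on the gene's own strand at bases 186 to 181. Both also held a RUNX motif, at bases 114 to 109 and 122 to 117 respectively. The *Cxcl10* window did not hold the ROR half-site. It held an interferon-stimulated motif at bases 213 to 204, κB motifs at bases 159 to 150 and 103 to 94, and an AP-1 motif at bases 74 to 68. Among 32841 promoter windows of the same length, the ROR half-site was found in 14.0%, the RUNX motif in 14.0%, the κB motif in 3.33%, the interferon-stimulated motif in 2.98%, the AP-1 motif in 6.75% and the hypoxia core in 16.6%. Windows were given for 7 of the 9 chemokines, and not for *Ccl4* and *Ccl5*. The windows of *Ccl1* and *Cxcl3*, which were also lower in the mutant libraries, did not hold the ROR half-site. The ROR half-site was in 2 of the 7, the κB motif in 3 of the 7 (*Ccl1*, *Cxcl10* and *Cxcl3*), the RUNX motif in 3 of the 7, the AP-1 motif in 2 of the 7, the hypoxia core in 2 of the 7 (*Ccl1* and *Cxcl3*) and the NFAT core GGAAA, which overlaps the interferon-stimulated motif and κB motifs in *Cxcl10* and *Cxcl3*, in 7 of the 7. That core was also in 55.6% of all windows. These are matches of letters only, and binding was not measured in these data.

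Values are given as normalized reads, that is, the counted reads of a gene after the authors' scaling of each library by its own factor. Each library held 17659035 to 18510878 reads on genes. The spread among replicates exceeded counting noise (1.32 to 3.05 times chance by the median chi-square of a pair), and WT replicate 3 was farther from the other WT libraries than they were from each other. In the 6 libraries the summed normalized reads of 4 Th17 markers (*Il17a*, *Il17f*, *Il23r* and *Il22*) were 61270 to 65977 in WT and 75725 to 76930 in mutant libraries, with 4 of 4 called higher. Of 4 T cell markers, *Cd4* was at 8901 to 9520 in WT and 7575 to 7621 in mutant libraries, called lower (log2 fold change -0.27, adjusted p = 1.16e-05 from limma). *Cd3e* was also called lower (-0.22), whereas *Cd28* was called higher (0.15) and *Cd3g* was not called (0.04). Genes with a mean of at least 10 normalized reads were tested with limma on log2(normalized reads + 1), with Benjamini-Hochberg adjustment over 11908 genes, and fold changes are on that scale, which understates those of low genes. Of these genes, 50.9% had an adjusted p under 0.05 (24.7% higher and 26.1% lower in the mutant), 3.59% were also changed at least 2-fold (2.73% higher and 0.857% lower), and in 57.7% the genotypes did not overlap (28.1% higher and 29.6% lower).

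Of the 9 chemokines, 8 were tested, and *Ccl1* was under the filter. Each of the 8 had a mean above 10 in both genotypes. In RORγtN275D Th17 cells *Ccl5*, *Cxcl10* and *Ccl9* rose and *Ccl20*, *Ccl3*, *Ccl4* and *Cxcl3* fell, so that 7 of 8 were called, 3 higher and 4 lower, beside 50.9% of all genes tested. *Xcl1* did not pass the test. At 2-fold, 4 of 8 were called, namely *Ccl5* higher and *Ccl20*, *Ccl3* and *Ccl4* lower. Of all genes tested, 3.59% were called at 2-fold, 2.73% higher and 0.857% lower. The median log2 fold change of the 8 was -0.03, beside -0.0026 over all genes tested. The genotypes did not overlap for 7 of the 8 tested chemokines, with *Xcl1* as the exception, beside 57.7% of all genes tested. Nor did they overlap for *Ccl1*, which is outside that share. The members were chosen with results of these data known, so their counts are a description. In bulk libraries, fewer cells making a chemokine and less RNA per cell cannot be told apart.

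**Figure D1:**
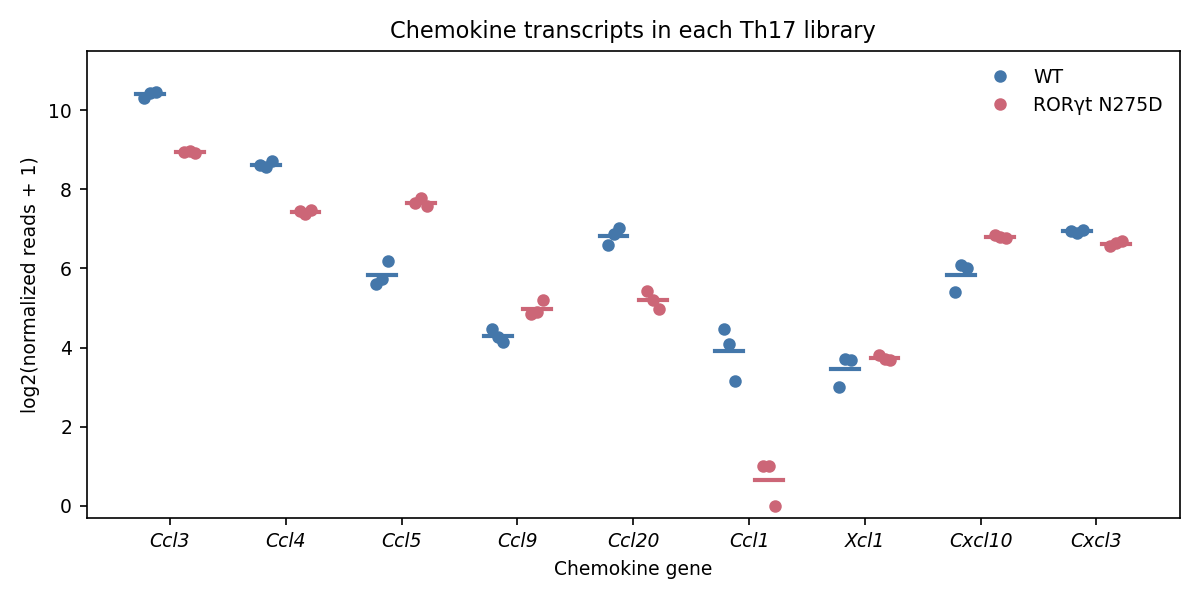
Level of each of the 9 chemokines as log2(normalized reads + 1), with 1 point per library, WT in blue and RORγtN275D in red, and a bar at the mean of 3 libraries. *Ccl3*, *Ccl4*, *Ccl20*, *Ccl1* and *Cxcl3* sit lower and *Ccl5*, *Ccl9* and *Cxcl10* higher in every mutant library than in every WT library, whereas the points of *Xcl1* overlap.

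The CC chemokines CCL3, CCL4, CCL5 and CCL9 were examined first. *Ccl3* (chromosome 11, 83647843 to 83649378), which encodes MIP-1α, had 1271, 1390 and 1412 normalized reads in WT and 490, 504 and 486 in mutant libraries. Every mutant library was below every WT library, and the mutant libraries were the closer to each other. The mean went from 1357 ± 75.8 to 493 ± 9.25 normalized reads (SD, 3 libraries each). On the log2 scale it fell by 1.46, with an adjusted p of 5.35e-12 from limma and a standard error of 0.05. *Ccl4* (chromosome 11, 83648624 to 83664683), which encodes MIP-1β and lies beside *Ccl3*, had 391, 375 and 416 normalized reads in WT and 173, 166 and 178 in mutant libraries. It fell by 1.19 on the log2 scale (standard error 0.08 by limma, adjusted p = 2.64e-09), from 394 ± 20.8 to 172 ± 6.15 normalized reads (SD, 3 libraries each). In RefSeq the span of *Ccl4*, which includes a predicted transcript, overlaps that of *Ccl3* on the opposite strand, and the strand setting of the read counting was not given in the sources used here, so reads in the overlap could have been split between them.

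*Ccl5* (chromosome 11, 83525778 to 83530518), which encodes RANTES, a chemokine made late after T cell activation, went the other way. It had 47.4, 52.5 and 71.7 normalized reads in WT and 199, 218 and 190 in mutant libraries. The highest WT library, replicate 3, was still well below the lowest mutant library. The log2 fold change was 1.82 (95% interval 1.53 to 2.11, adjusted p = 2.35e-08 from limma), and it was 1.99 without WT replicate 3. *Ccl9* (chromosome 11, 83572917 to 83578636), the CCR1 ligand known as MIP-1γ, had 21.2, 18.2 and 16.7 normalized reads in WT and 28.0, 29.1 and 35.6 in mutant libraries. Its log2 fold change was 0.69 (standard error 0.22 by limma, adjusted p = 0.0133). That call was lost without N275D replicate 3, the highest library (log2 fold change 0.59, adjusted p = 0.0667 from limma), under quantile normalization (adjusted p = 0.0836 from limma) and with DESeq2 (adjusted p = 0.0771).

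Levels were compared between genes as normalized reads per kilobase of exon. On that scale *Ccl3* was highest in WT, at 1772 ± 99.0, followed by *Ccl4* at 597 ± 31.6 (SD, 3 libraries each). Below them *Cxcl3* (120 ± 2.90), *Ccl5* (108 ± 24.1) and *Ccl20* (79.7 ± 11.6) each overlapped the next in rank, as did *Cxcl10* (37.9 ± 9.32), *Ccl1* (24.6 ± 10.98) and *Xcl1* (19.7 ± 5.40), and *Ccl9* was lowest at 6.22 ± 0.763 (normalized reads per kilobase, SD, n = 3 each). In mutant cells *Ccl3* was still highest, at 644 ± 12.1, and *Ccl5* came next at 380 ± 26.9, above *Ccl4* at 261 ± 9.31 (SD, 3 libraries each). *Cxcl3* (96.4 ± 3.89) and *Cxcl10* (72.8 ± 2.03) followed, the ranges of *Ccl20* (25.5 ± 3.98) and *Xcl1* (23.5 ± 1.15) overlapped, and *Ccl9* (10.3 ± 1.36) and *Ccl1* (1.09 ± 0.943) were lowest (normalized reads per kilobase, SD, n = 3 each).

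Of the summed per-kilobase level of the 9 genes, *Ccl5* made up 3.87% ± 0.672 in WT but 25.1% ± 1.27 in N275D cells (SD, 3 libraries each). The share of *Ccl3* was 64.1% ± 1.04 in WT and 42.5% ± 0.107 in N275D cells (SD, 3 libraries each). The per-kilobase level of *Ccl3* was 18.6, 18.4 and 13.7 times that of *Ccl5* in WT libraries and 1.71, 1.61 and 1.78 times in mutant libraries. The summed normalized reads of the 9 genes were 2019, 2166 and 2253 in WT and 1153, 1174 and 1141 in mutant libraries.

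**Figure D2:**
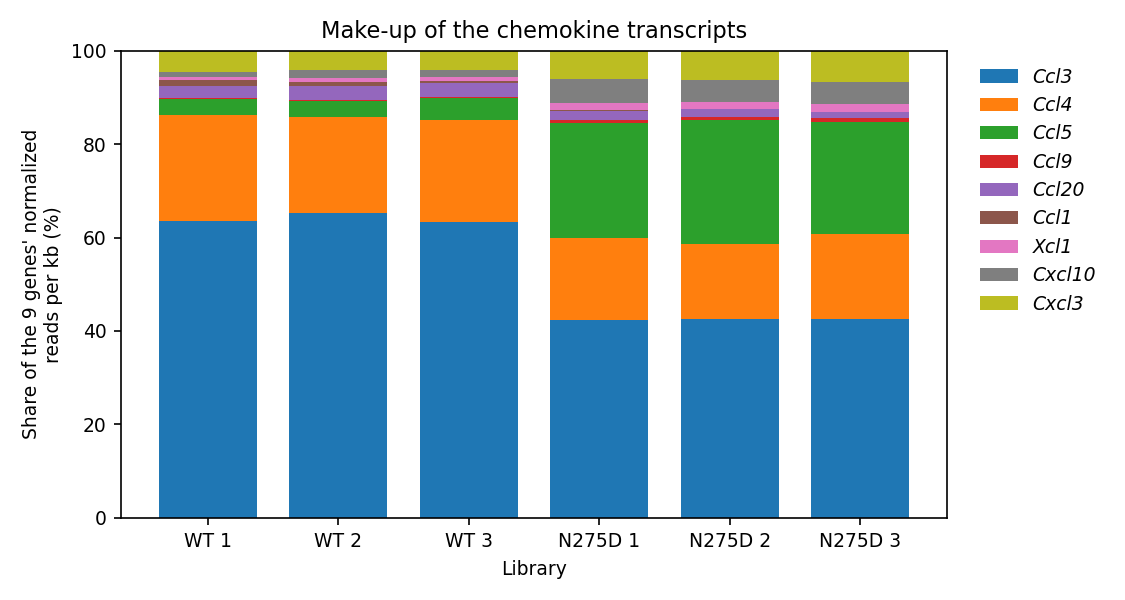
Share of each chemokine, in percent, in the summed normalized reads per kilobase of the 9 genes, with 1 stacked bar per library. *Ccl5* (green) takes 25.1% on average in the 3 mutant libraries and 3.87% in the 3 WT libraries, and *Ccl3* (blue) 42.5% and 64.1%.

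The log2 ratio of *Ccl5* to *Ccl3* within a library was -4.57 ± 0.25 in WT and -1.29 ± 0.07 in N275D cells (SD, 3 libraries each), a difference of 3.28. The log2 ratio of *Ccl3* to *Ccl4* was 1.78 ± 0.10 in WT and 1.51 ± 0.08 in N275D cells (SD, 3 libraries each). Both comparisons gave p = 0.1 in a two-sided exact permutation test, the smallest that 3 libraries against 3 can give (adjusted p = 0.114 over 8 pairs). No share of non-overlap was computed over all gene pairs, and for single genes tested it was 57.7%. In 7 of the 8 pairs compared, the ratios of the genotypes did not overlap. The exception was *Ccl20* with *Ccl3*, whose log2 ratio was -3.58 ± 0.13 in WT and -3.74 ± 0.22 in N275D cells (SD, 3 libraries each, exact permutation p = 0.4), which does not show that both fell equally.

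*Ccl20* (chromosome 1, 83116766 to 83119167) had the largest fall of the chemokines tested. It had 95.9, 115 and 129 normalized reads in WT and 41.9, 36.1 and 30.6 in mutant libraries. The 3 WT libraries all lay far above the 3 mutant libraries. The log2 fold change was -1.62 (95% interval -1.95 to -1.29, adjusted p = 3.82e-07 from limma), and it stayed between -1.80 and -1.41 under the alternatives. Its upstream window is the first shown above. *Ccl1* (chromosome 11, 82176666 to 82179812) had 21, 16 and 8 reads in WT and 1, 1 and 0 reads in mutant libraries. Those 45 reads against 2 give a WT level 22.0 times that of the mutant, with an exact 95% interval of 5.76 to 188 that covers counting error only. With a mean of 7.87 normalized reads over the 6 libraries it was not in the main test, and without the filter limma called it lower (adjusted p = 0.000136).

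*Cxcl10* (chromosome 5, 92346638 to 92348889) had 41.4, 67.6 and 63.8 normalized reads in WT and 114, 110 and 108 in mutant libraries. WT replicate 1 was lower than the other WT libraries, and the mutant libraries were nearly alike. Its log2 fold change was 0.96 (95% interval 0.62 to 1.30, adjusted p = 0.000118 from limma), just short of 2-fold, and without a WT replicate it ranged from 0.74 (replicate 1 left out) to 1.05 (replicate 3) and 1.09 (replicate 2). Under quantile normalization it was 0.80. *Art3*, which overlaps *Cxcl10* on the opposite strand, was listed at 0.982 to 2.01 normalized reads in the 6 libraries. *Cxcl3* (chromosome 5, 90786101 to 90788093) had 123, 119 and 125 normalized reads in WT and 93.8, 98.3 and 102 in mutant libraries. Its log2 fold change of -0.32 (standard error 0.10 by limma, adjusted p = 0.0162) was the smallest of the 7 called, and the call was lost without N275D replicate 1 (-0.29, adjusted p = 0.0587 from limma) and with DESeq2 (adjusted p = 0.110). *Xcl1* (chromosome 1, 164931644 to 164935522), which encodes lymphotactin, had 7.07, 12.1 and 11.8 normalized reads in WT and 13.0, 12.04 and 11.9 in mutant libraries. Its log2 fold change was 0.26, with a 95% interval of -0.41 to 0.94 (adjusted p = 0.509 from limma), an interval that runs from a fall to a rise of nearly 2-fold.

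Of 32 other mouse chemokine ligand genes, 20 were in the table and 6 passed the filter, of which 1 was called higher and 1 lower, beside 24.7% and 26.1% of all genes tested. *Ccl22*, a CCR4 ligand, had 159, 169 and 213 normalized reads in WT and 269, 249 and 267 in mutant libraries, a log2 fold change of 0.54 (standard error 0.10 by limma, adjusted p = 0.000313). *Cxcl5*, a CXCR2 ligand like *Cxcl3*, had 20.2, 22.2 and 12.8 normalized reads in WT and 8.98, 12.04 and 9.88 in mutant libraries (log2 fold change -0.75, adjusted p = 0.0447 from limma). The *Cxcl5* call was lost in 5 of the 6 fits that left out 1 library, with adjusted p from 0.0502 to 0.172 (limma), and remained only without WT replicate 3. The other 4, *Ccl25*, *Ccl27a*, *Ccl27b* and *Cxcl16*, had log2 fold changes between -0.17 and 0.20 and were not called.

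Under the filter, and named after their values were seen, were a few ligands at low reads. *Ccl6*, which lies beside *Ccl9* on chromosome 11, had 1.009, 0 and 0.982 normalized reads in WT and 8.98, 11.04 and 10.9 in mutant libraries. *Cxcl2*, another CXCR2 ligand, had 13.1, 8.07 and 11.8 in WT and 3.99, 3.01 and 2.96 in mutant libraries. The platelet chemokine genes *Pf4* (1.009 to 3.03 in WT, 8.98 to 14.0 in mutant libraries) and *Ppbp* (0 to 3.93 in WT, 7.02 to 19.97 in mutant libraries) were higher in each mutant library.

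Receptors of the 9 chemokines were taken as a further list. Of the 9 receptor genes reported here, 7 were in the table and 5 were tested, of which 3 were called higher and 0 lower in mutant cells, beside 24.7% and 26.1% of all genes tested. Their median log2 fold change was 0.38. *Ccr6*, the CCL20 receptor, had 2676, 2633 and 2637 normalized reads in WT and 3448, 3523 and 3379 in mutant libraries, a log2 fold change of 0.38 (standard error 0.04 by limma, adjusted p = 5.02e-07). *Ccl20* and *Ccr6* therefore moved in opposite directions in the same libraries. *Ccr3*, whose product binds CCL5, rose from 49.3 ± 4.96 to 84.0 ± 3.59 normalized reads (SD, 3 libraries each), a log2 fold change of 0.76 (adjusted p = 0.000206 from limma). *Ccr1* had 11.1, 9.08 and 6.88 normalized reads in WT and 22.0, 20.1 and 22.7 in mutant libraries, and was called at 2-fold (log2 fold change 1.19, adjusted p = 0.00218 from limma), which fell short of 2-fold with a pseudocount of 10 (0.74) and under quantile normalization (0.97). Its WT mean of 9.02 was itself below the filter, so it was tested only because of its mutant level. *Ccr8* (0.09, adjusted p = 0.275 from limma) and *Cxcr3* (0.01, adjusted p = 0.867 from limma) were not called, with 95% intervals of -0.05 to 0.24 and -0.10 to 0.13. *Cxcr2* (mean 7.01 in WT and 6.97 in mutant libraries) and *Xcr1* (2.98 and 1.66) were under the filter.

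**Figure D3:**
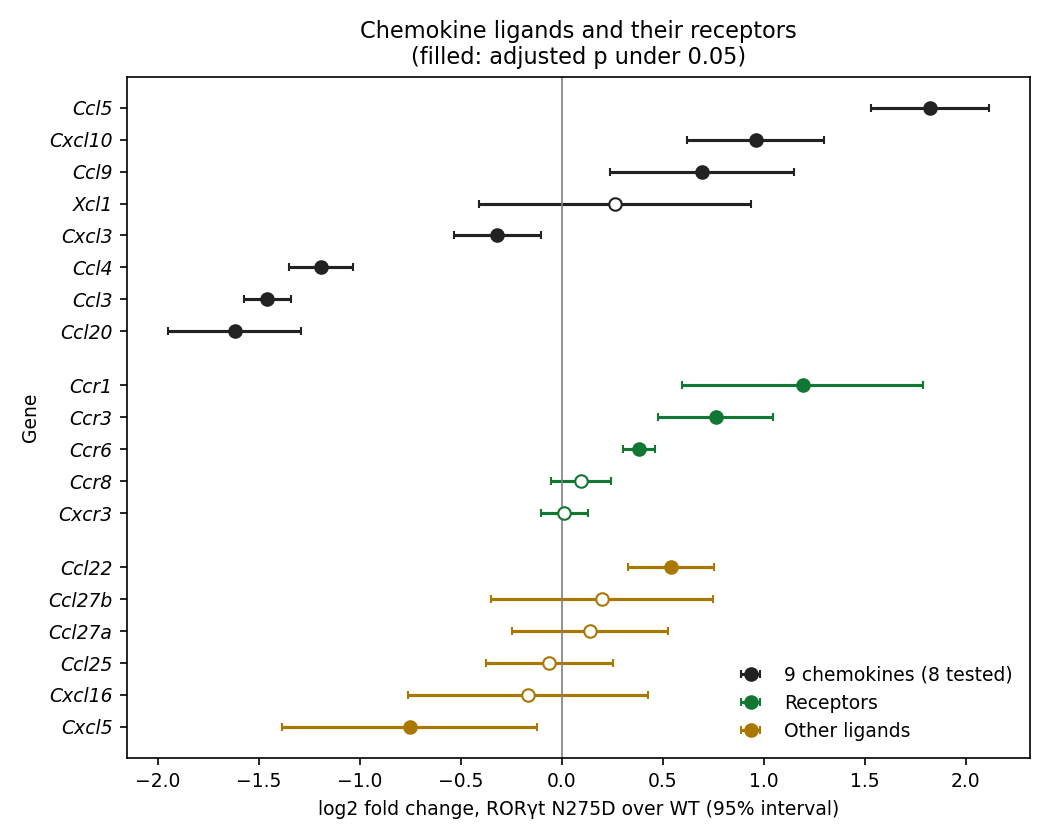
Log2 fold change of RORγtN275D over WT with its 95% interval (limma, n = 3 each) for the 8 tested chemokines, 5 receptors and 6 other ligands, with filled points for genes at an adjusted p under 0.05. The chemokines run from -1.62 (*Ccl20*) to 1.82 (*Ccl5*), and the 3 called receptors are above 0.

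The chemokines were set beside 20 genes induced by T cell activation. Of these, 16 were called lower and 4 higher in mutant cells (median log2 fold change -0.49), beside 26.1% and 24.7% of all genes tested. *Il2*, which encodes the T cell growth factor, had 10101 to 10626 normalized reads in WT and 2100 to 2222 in mutant libraries, a log2 fold change of -2.27 (adjusted p = 3.32e-16 from limma). *Egr3*, an early T cell receptor target, fell by 1.55 on the log2 scale (standard error 0.05 by limma, adjusted p = 1.67e-12). The 4 that were higher, named after their values were seen, were *Dusp5* (0.75), *Jun* (0.60), *Myc* (0.17) and *Irf4* (0.11), of which *Irf4* lost its call without WT replicate 1, N275D replicate 2 or N275D replicate 3 (adjusted p from 0.0568 to 0.0613 with limma). *Ccl3*, *Ccl4* and *Ccl20* had the direction of most of this list, and *Ccl5* and *Cxcl10* the opposite one. The part of T cell activation in the chemokine levels was not tested.

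Of the 14 genes of the IFN-γ response reported here, which include *Ifng* and both receptor chains, 9 were called higher, beside 24.7% of all genes tested. Members of this list that are not reported are outside that count, which therefore gives no balance of rises and falls over the pathway. *Ifit1* had 29.3 to 36.3 normalized reads in WT and 141 to 161 in mutant libraries (log2 fold change 2.14, adjusted p = 2.17e-09 from limma), and *Ifit3* had 5.04 to 11.8 and 19.97 to 32.6 (1.71, adjusted p = 0.000417 from limma). *Ifit3* had a WT mean below the filter of 10. Both are induced more by type I interferons than by IFN-γ. The other 5, *Irf1* (-0.05), *Gbp2* (-0.14), *Gbp3* (0.17), *Igtp* (0.02) and *Iigp1* (0.05), were not called. Without WT replicate 3, and with a mean of at least 100, 1 gene of the list was called lower. *Cxcl10* had the direction of *Ifit1* and *Ifit3*, the largest rises of the list, but not that of *Irf1* and *Gbp2*. The part of interferon signalling in its level was not tested.

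Among the 14 transcription factors and NF-κB pathway genes reported here, 5 were called higher and 5 lower, beside 24.7% and 26.1% of all genes tested. *Nfatc1*, a calcium-dependent activator of cytokine genes, was called at 2-fold, with 3189, 3399 and 3590 normalized reads in WT and 1648, 1611 and 1570 in mutant libraries (log2 fold change -1.07, adjusted p = 2.64e-11 from limma). The 5 that were higher, named after their values were seen, were *Stat4* (0.84), *Hif1a* (0.78), *Klf13* (0.39), *Rora* (0.26) and *Stat3* (0.22). Beside *Nfatc1*, the lower ones were *Tbx21* (-0.83), *Rel* (-0.40), *Nfkbia* (-0.35) and *Nfatc2* (-0.34), also named after their values were seen.

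**Figure D4:**
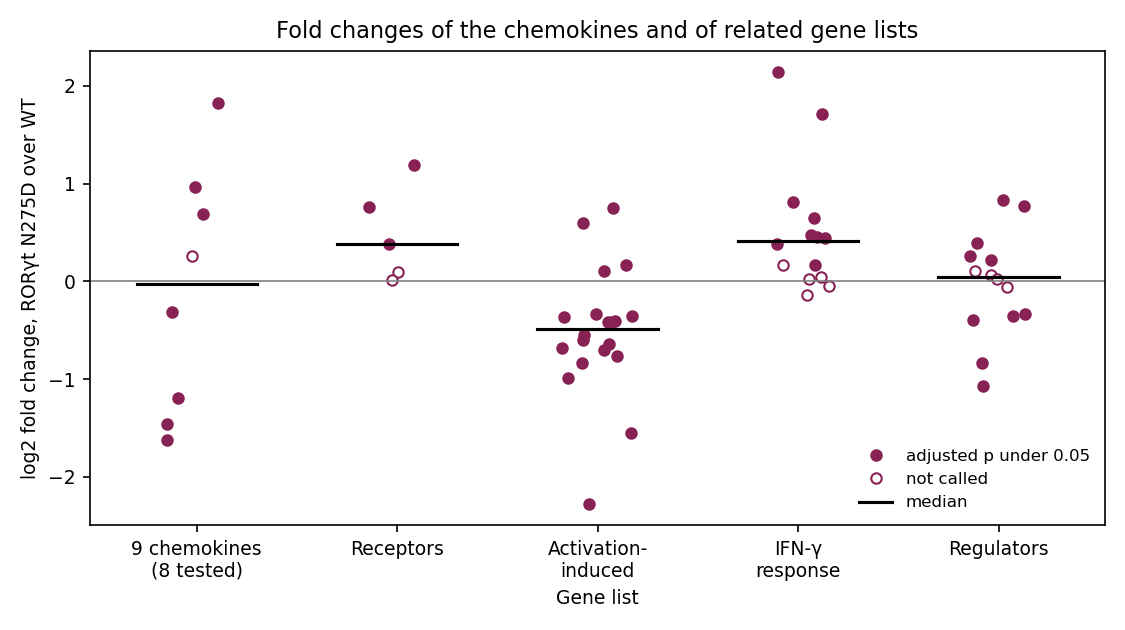
Log2 fold change of RORγtN275D over WT for each tested gene of the chemokines and of 4 related lists, with filled points at an adjusted p under 0.05 (limma) and a line at each list's median. The median is -0.49 for 20 activation-induced genes, whereas the chemokines spread to both sides of 0.

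The genes whose levels across the 6 libraries were nearest to a chemokine's were found among 9581 genes with a mean of at least 100, by the distance between centred log2 values, which is set mainly by the difference between genotypes. Nearest to *Ccl3* were *Nab2* (distance 0.14, log2 fold change -1.37), which encodes a corepressor of EGR factors, *Egr3* (0.15, -1.55) and *Tnfsf9* (0.16, -1.43), the ligand of 4-1BB. *Egr3* was also among the 3 nearest to *Ccl20* (0.38), after *Chst2* (0.35, -1.49) and *Il1a* (0.35, -1.60). For *Ccl5* the nearest were *Itga7* (0.29, 1.80), *Atp7b* (0.37, 1.75) and *Gadd45a* (0.40, 1.61). The WT means of *Atp7b* (46.3) and *Gadd45a* (64.3) and the mutant mean of *Il1a* (61.1) were below 100. Each of them entered the search only because of its level in the other genotype. These are likenesses over 6 libraries and say nothing of shared control.

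Markers of other cells that can make chemokines did not stay level between genotypes. The summed normalized reads of 6 B cell markers lay between 1117 and 1155 in WT and between 1687 and 1754 in mutant libraries, mostly *Ebf1*, and 4 of the 5 tested were called higher, beside 24.7% of all genes. The sum of 6 CD8 T and natural killer cell markers was 309.9 to 321 in WT and 410 to 453 in mutant libraries. Of these, 3 of 5 tested were called higher (*Cd8b1*, *Eomes* and *Klrd1*), beside 24.7% of all genes. *Cd8a* (means 32.6 in WT and 27.6 in mutant libraries) and *Nkg7* (107 and 121) overlapped between genotypes and were not called. *Klrb1c* was between 0 and 2.02 in every library. For 7 myeloid markers the sums were 47.4 to 58.5 and 49.2 to 63.9, with *Cd14* called higher and *Adgre1* called lower, the latter tested only because of its WT level (means 22.6 and 6.64). The sums of 5 platelet markers, which include *Pf4* and *Ppbp*, were 30.3 to 38.3 and 68.1 to 83.9, and *Itga2b* alone was at 26.2 to 32.4 and 44.4 to 48.9. The sums of 3 neutrophil markers were 2.02 to 3.03 and 7.99 to 11.04, with *S100a8* and *S100a9* at no more than 1 read each. Those of 3 dendritic cell markers were 49.4 to 72.7 and 79.0 to 96.8. Of these, *Flt3* was called higher (means 21.3 in WT and 44.2 in mutant libraries). *Zbtb46* was not called (38.2 and 42.5), and *Xcr1* was under the filter (2.98 and 1.66). The 1 gamma delta T cell marker in the table, *Sox13*, was at 18.2 to 31.4 and 35.1 to 38.5. *Ccl5*, *Ccl6* and *Ccl9* were higher in the mutant libraries, as were all of these sums and *Sox13*, apart from the overlapping myeloid sum. Within sums that rose, not every marker did, and the means of *Cd8a* and *Xcr1* were lower. The sum of the Th17 markers was higher there too. The part of other cells in the levels of *Ccl5*, *Ccl6* and *Ccl9* was not tested.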

How the data were processed

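RNA-seq of 3 WT and 3 RORγtN275D Th17 libraries was analysed, with genotype and replicate taken from the labels. According to the methods, the authors trimmed reads, aligned them to mm10 with STAR and counted them with featureCounts. The deposited signal values are normalized reads, the authors' read counts after each library was scaled by its own factor. Dividing by that factor gave whole numbers for 100% of values (tolerance 1e-06), so reads were recovered (17659035 to 18510878 per library). Tool versions, the strand setting of the counting and the handling of shared reads were not given in the sources used here, and the methods and the labels name different directional library kits. The authors' deposited log2 fold changes, q-values and group averages (whole-number scores) were not used, and 0 columns of per-sample values were left unused.

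Genes with a mean of at least 10 were tested with limma (version 3.58.1, R 4.3.3), on log2(normalized reads + 1) with trend in the empirical Bayes step, and called at an adjusted p under 0.05, with a stricter call at an absolute log2 fold change of 1. Intervals are at 95%. Ratios of pairs were compared with exact permutation tests (scipy 1.17.1). Alternatives were pseudocounts of 0.1 and 10, a filter at a mean above 0 or at 100, scaling by TMM or quantiles, no trend, a replicate block, leaving out single libraries, and edgeR (4.0.16) and DESeq2 (1.42.0) on the recovered reads. The script was tested on simulated data.

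Exon lengths came from GENCODE M21, and gene spans and promoter windows from RefSeq (GRCm38.p6, the build mm10). All 9 chemokines matched by symbol, and 7 had a promoter window. The chemokines and the gene lists were chosen with earlier results of these data known. Genes named are the 9 chemokines, list members called at 2-fold or else the 2 largest rises and falls of a list, and the 3 nearest genes to *Ccl20*, *Ccl5* and *Ccl3*, with exceptions named as such. A few members of the receptor, IFN-γ, regulator and Th17 marker lists are not reported here, and counts and medians leave them out.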

Additional observations from a re-analysis of the deposited data

How the results depend on the processing

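Of the 7 chemokines called, *Ccl3*, *Ccl4*, *Ccl5*, *Ccl20* and *Cxcl10* kept direction and call in every alternative in which they were tested, and *Ccl9* and *Cxcl3* kept their direction but lost the call in 3 and 2 of them. Signs were followed for the chemokines and for the ligand, receptor, activation, IFN-γ and regulator lists only. No called gene of these changed sign. Of their genes that were not called, 8 changed sign in at least 1 alternative, among them *Ccl25*, *Ccl27a*, *Ccl27b* and *Cxcr3*. Leaving out each library gave 6 to 7 called chemokines of the 8 tested and 4 to 5 at 2-fold. The calls over all genes moved in these fits too. They were more than in the main test without WT replicate 3 and fewer when any other library was left out. The 50.9% of the main test is therefore not the background of these counts. With a mean of at least 100, 4 chemokines of 4 tested, 1 receptor of 3 and 1 other ligand of 1 were called, because fewer genes were tested. The share of all genes called was then larger than in the main test. Other ligands numbered 5 without a filter, when more were tested, 1 with DESeq2, and 1 to 2 when a library was left out, for the loss of *Cxcl5*. Over all genes the calls at 2-fold were 427 (76.1% of them higher, and 61.4% under quantile normalization), and they were 259 with a pseudocount of 10, 703 without a filter and 162 with a mean of at least 100. The median of all genes moved by less than 0.1 on the log2 scale under each scaling.

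Same-numbered libraries did not deviate together (correlations of -0.05, 0.04 and -0.08 for replicates 1, 2 and 3), and WT replicate 1 was closest to N275D replicate 3 (0.08), so the numbers were not taken as pairs. With the replicate block, 7 chemokines and 3 receptors were called, and 1 other ligand, because *Cxcl5* lost its call (adjusted p = 0.0554 from limma). Over all genes, fewer were called with the block than in the main test. The depth limits *Ccl1*, *Xcl1* and *Ccl9* most, as counts of at most 36 reads a library lie behind them.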
